A study of Mus musculus with 2 samples.

Results

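Early response and heat shock genes were followed across the immune cells of B16-OVA tumors, a mouse melanoma that carries the model antigen ovalbumin. They form a set of 36 gene symbols, all of them found among the 17232 genes of the expression table. The set has 2 arms. The early response arm has 25 genes, namely the AP-1 subunits *Fos*, *Fosb*, *Fosl2*, *Jun*, *Junb* and *Jund*, the transcription factors *Egr1*, *Egr2*, *Egr3*, *Atf3*, *Nr4a1*, *Nr4a2*, *Nr4a3*, *Klf4* and *Klf6*, the early genes *Ier2*, *Ier3* and *Ier5*, and the feedback genes *Dusp1*, *Dusp5*, *Zfp36*, *Btg2*, *Nfkbia*, *Nfkbiz* and *Ppp1r15a*. The chaperone arm has the other 11 genes, *Hspa1a*, *Hspa1b*, *Hsph1*, *Dnajb1*, *Dnaja1*, *Hspa8*, *Hsp90aa1*, *Hsp90ab1*, *Hspe1*, *Hspd1* and *Hspb1*.

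The cells came from *Maoa* WT mice and from mice with a hypomorphic *Maoa* allele, which the labels call *Maoa* knock out and which are called KO here. The study's methods put both on a C57BL/6J background at 8 to 12 weeks of age, and the tumors were taken 14 days after challenge. For each genotype, 10 tumors were pooled, live leukocytes were sorted as DAPI-CD45.2+ cells, 10000 cells were loaded, and 1 droplet library was made by 3′ end counting. All host cells carried the allele, so a difference is not limited to one cell type. With 1 library per genotype there was no replicate and no test. The intervals given here, all at 95%, cover counting error only, and the genotype cannot be told apart from any other difference between the pools.

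Early response genes are transcribed within minutes of a signal, without the need for new protein. AP-1 is a family of dimers of FOS and JUN proteins that act downstream of MAP kinases, and several early genes, such as the phosphatase gene *Dusp1* and the mRNA decay gene *Zfp36*, shut the same response down. Heat shock genes are driven by HSF1 when unfolded proteins build up, and their products hold, fold or disaggregate other proteins. Both programmes are known to respond to the cutting and warming of tissue when it is made into a cell suspension, as well as to signals inside a tumor. Which of these acted here was not tested.

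The upstream sequences were searched for letters that HSF1 and CREB or AP-1 family factors are known to read, and the arms differed in the HSF1 letters. RefSeq windows of 250 bases before the gene start (GRCm38.p6) were matched for 29 of the 36 genes. *Egr1*, *Egr3*, *Ier2*, *Nfkbiz*, *Hspa8*, *Hsp90aa1* and *Hsp90ab1* had none. The chaperone shares thus leave out *Hspa8*, *Hsp90ab1* and *Hsp90aa1*, the most counted genes of that arm. A gene with several windows counted if any of them held the letters. A pair of head-to-head or tail-to-tail HSF1 units, GAANNTTC or TTCNNGAA, was found in 7 of 8 chaperone windows (87.5%), in 3 of 21 early response windows (14.3%) and for 3932 of all 27025 genes (14.5%). The one chaperone window without it was that of *Dnajb1*, and the windows of *Hspe1* and *Hspd1* share bases because these genes start head to head. The letters TGACG were found on either strand in 13 of 21 early response windows (61.9%), in 4 of 8 chaperone windows (50.0%) and for 19.8% of all genes. The full palindrome TGACGTCA, which contains TGACG, was in 3 early response windows (14.3%, those of *Dusp1*, *Btg2* and *Ppp1r15a*) and 0 chaperone windows, against 1.77% of all genes. The serum response CArG box was in 3 early response windows (14.3%, those of *Egr2*, *Dusp5* and *Zfp36*) against 1.62%, and TGANTCA was in 0 of the 29 windows against 7.82%. A match describes letters only and is not a site of binding.

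The first sequences printed are the inducible Hsp70 pair and the small heat shock gene *Hspb1*, because their RNA was held by few cells. Capitals mark GAANNTTC. The windows are chr17:34972157-34972406 for *Hspa1a* and chr17:34959239-34959488 for *Hspa1b*, both on the minus strand, and chr5:135887669-135887918 on the plus strand for *Hspb1*. Over the 250 bases, *Hspa1a* and *Hspb1* have 1 and 2 matches, and the windows of *Hspa1a* and *Hspa1b* are the same at 247 positions (98.8%).
Hspa1a: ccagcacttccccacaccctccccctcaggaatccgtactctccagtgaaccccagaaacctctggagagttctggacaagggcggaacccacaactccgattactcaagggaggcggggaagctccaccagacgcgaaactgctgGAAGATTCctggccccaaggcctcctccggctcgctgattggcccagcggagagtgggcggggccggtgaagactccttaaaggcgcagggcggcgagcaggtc
Hspa1b: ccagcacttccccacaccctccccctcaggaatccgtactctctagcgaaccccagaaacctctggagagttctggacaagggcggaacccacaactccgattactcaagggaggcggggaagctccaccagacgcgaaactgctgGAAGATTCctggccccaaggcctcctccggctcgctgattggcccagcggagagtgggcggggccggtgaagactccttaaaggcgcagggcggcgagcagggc
Hspb1: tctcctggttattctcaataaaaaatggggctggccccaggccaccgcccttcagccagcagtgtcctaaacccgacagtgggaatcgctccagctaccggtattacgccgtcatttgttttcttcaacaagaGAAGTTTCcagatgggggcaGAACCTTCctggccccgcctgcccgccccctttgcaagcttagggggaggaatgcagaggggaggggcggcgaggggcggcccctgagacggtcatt

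The next are *Fos*, *Junb* and *Btg2*, which were higher in the library labelled KO in every cluster. Capitals mark TGACG, and in *Btg2* the palindrome TGACGTCA. TGACG was also in the windows of *Dusp1*, *Dusp5* and *Klf4*, which were lower in that library in 11, 11 and 14 of 15 clusters. It was not in that of *Zfp36*, which was higher in 14 clusters, and *Ier2*, higher in 15, had no window. Whether these letters go with a direction was not tested. The windows are chr12:85473640-85473889 on the plus strand for *Fos*, chr8:84978749-84978998 on the minus strand for *Junb*, and chr1:134079156-134079405 on the minus strand for *Btg2*.
Fos: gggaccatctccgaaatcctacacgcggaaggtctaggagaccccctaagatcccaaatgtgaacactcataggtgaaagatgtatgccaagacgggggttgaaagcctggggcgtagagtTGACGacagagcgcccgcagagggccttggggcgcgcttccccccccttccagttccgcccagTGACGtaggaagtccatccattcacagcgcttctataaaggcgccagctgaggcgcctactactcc
Junb: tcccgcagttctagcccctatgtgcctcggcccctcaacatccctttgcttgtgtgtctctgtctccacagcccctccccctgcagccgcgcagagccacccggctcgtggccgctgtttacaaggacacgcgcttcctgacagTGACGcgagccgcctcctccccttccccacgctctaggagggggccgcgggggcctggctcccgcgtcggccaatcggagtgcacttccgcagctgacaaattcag
Btg2: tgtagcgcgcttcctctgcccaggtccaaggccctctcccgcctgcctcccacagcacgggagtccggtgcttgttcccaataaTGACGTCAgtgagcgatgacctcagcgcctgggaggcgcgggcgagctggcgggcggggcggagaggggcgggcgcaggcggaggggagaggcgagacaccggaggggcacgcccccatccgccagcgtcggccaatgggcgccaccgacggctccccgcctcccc

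The library labelled WT held 2392 cells at a median of 9887.5 UMIs (unique molecular identifiers, each counting 1 RNA molecule) and the library labelled KO held 2630 cells at a median of 6945.5. The targeted gene did not bear out the labels, with 7 *Maoa* UMIs (6 cells) under the WT label and 15 (14 cells) under the KO label. Cells were clustered without the 36 genes, of which 17 would otherwise have been among the 599 variable genes, and the 15 clusters were assigned to classes by markers. In the order WT label and KO label, there were 1045 and 1116 T cells, 182 and 264 NK cells, 968 and 834 tumor-associated macrophages and monocytes (TAM/Mono), 141 and 322 dendritic cells (DC), 48 and 70 plasmacytoid DC (pDC), and 8 and 24 B cells. The classes differed in depth between the libraries, most in T cells (medians of 9916 and 4823 UMIs), and for this reason the shares of cells that held a UMI come from cells thinned to 1 depth per class. A list of 7 neutrophil genes, none of them at 0 in either library, summed to 337 CPM (counts per 1e6 UMIs) in the library labelled WT and 96.2 in the library labelled KO, with all 4 larger classes lower under the KO label. Its part in the results was not tested. No class is known to lack these genes, so no share of cells could be set against a background of free RNA, and 13 barcodes occurred in both libraries.

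All 36 genes had at least 10 UMIs over both libraries. The least counted was *Egr3*, an EGR family factor induced by antigen receptors, with 10 UMIs in 10 cells, and the most counted was *Hspa8*, the constitutive cytosolic Hsp70, with 104071 UMIs in 99.5% of cells. Since a 3′ library counts 1 end per molecule, levels were not divided by gene length. The early response arm summed to 2575 CPM in T cells, 3680 in NK cells, 5264 in TAM/Mono, 4282 in DC and 2759 in pDC of the library labelled WT. Under the KO label the same sums were 2887, 4273, 5757, 4650 and 2780 CPM. Both libraries thus ordered the 4 larger classes in the same way, TAM/Mono above DC above NK cells above T cells, with no overlap of the counting intervals.

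The chaperone arm followed another order. Its sums in T cells, NK cells, TAM/Mono, DC and pDC were 5654, 4105, 4634, 4584 and 4586 CPM under the WT label and 4433, 3768, 4800, 4131 and 3020 CPM under the KO label. T cells thus led under the WT label and TAM/Mono under the KO label, with NK cells the lowest of the 4 larger classes in both. TAM/Mono (4596 to 4673 CPM) and DC (4494 to 4675 CPM) could not be told apart under the WT label. In the plot of all members by class, the abundant *Hspa8* is nearly even across classes while *Fos*, *Atf3*, *Ier3* and *Hspa1a* are not.

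**Figure D1:**
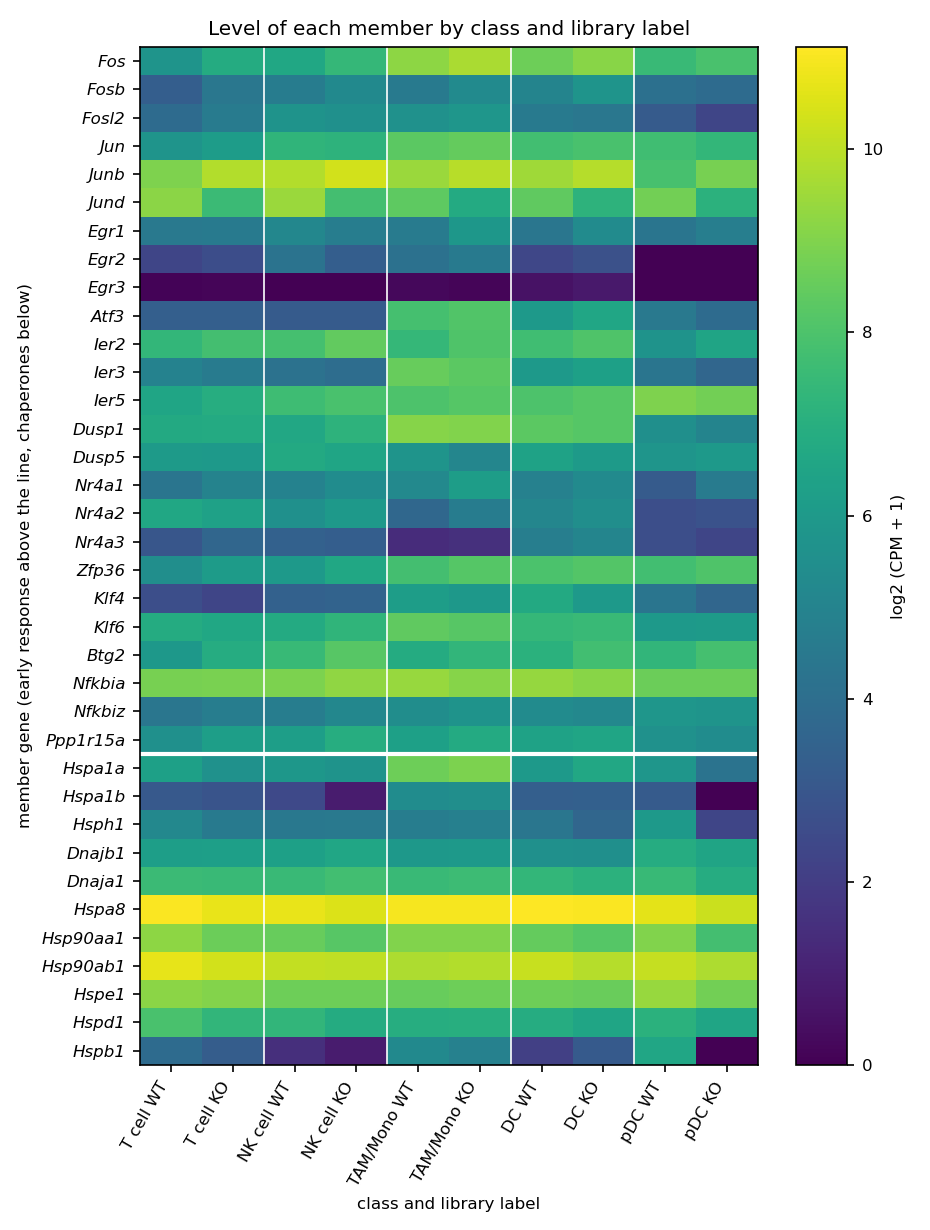
Level of each of the 36 genes as log2 of CPM plus 1 (colour), in 5 classes of each library (columns), with the early response arm above the line and the chaperone arm below it. *Fos* (591.6 and 831.5 CPM in TAM/Mono against 53.2 and 113.7 in T cells) and *Atf3* are bright in TAM/Mono, and *Hspa8* is bright in every column.

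Of the 25 early response genes, 18 had the same highest class in both libraries, which was TAM/Mono for 8, NK cells for 5, DC for 4 and T cells for 1. One of the 4 for DC is *Egr3*, which had 1 and 3 UMIs there. Among these 4 classes, 9 early response genes differed at least 4-fold between the highest and the lowest class in both libraries, and 1 chaperone gene, *Hspa1a*, did. The share of all genes that differ as much was not counted, so nothing is read from these counts about an arm. *Hspa1b* and *Hspb1*, with 1 to 5 UMIs in NK cells, were given no ratio in one or both libraries. The stress factor *Atf3*, a dimer partner of JUN proteins, had 226.1 and 270.5 CPM in TAM/Mono against 8.06 and 8.25 CPM in NK cells, a ratio of 28.1 and 32.8. *Ier3*, an early gene linked to cell survival, had 364.5 and 313.8 CPM in TAM/Mono against 17.0 and 14.8 in NK cells. Both genes thus had their top in myeloid cells of both libraries.

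*Fos*, the partner of JUN proteins in AP-1, reached 591.6 CPM in TAM/Mono and 53.2 in T cells under the WT label, a ratio of 11.1, and 831.5 and 113.7 CPM under the KO label, a ratio of 7.31. *Jun* had 319.9 and 354.9 CPM in TAM/Mono and 53.3 and 70.0 CPM in T cells. *Dusp1*, a phosphatase that turns MAP kinases off, had 545.9 and 512.4 CPM in TAM/Mono. In T cells it had 106.9 and 111.8 CPM, and NK cells were in the same range with 102.1 and 145.1 CPM. *Zfp36*, which binds AU-rich mRNA and speeds its decay, was highest in DC under the WT label (248.9 CPM) and in TAM/Mono under the KO label (290.6 CPM).

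A few members had their highest level in other classes. *Klf4*, a factor of the monocyte lineage, had 107.0 and 63.3 CPM in DC, 72.2 and 60.4 CPM in TAM/Mono and 5.45 and 4.06 CPM in T cells. DC and TAM/Mono overlapped in their intervals under the KO label, and the monocyte cluster 5 (126.2 and 98.7 CPM) was above DC as a class in both libraries. *Nr4a3*, an orphan nuclear receptor, was highest in DC (25.7 and 31.9 CPM) and lowest in TAM/Mono (1.68 and 1.89 CPM). Most of the *Nr4a3* in DC came from the *Fscn1* and *Ccr7* cluster, where it had 108 and 184 CPM. *Nr4a2*, from the same receptor family, was the one early response gene with its highest level in T cells in both libraries (98.6 and 81.9 CPM). Within T cells it was concentrated in the *Cxcr6*, *Prf1* and *Lag3* cluster (136 and 171 CPM) and the cycling cluster (103 and 130 CPM), against 16.4 and 17.5 CPM in the *Lef1* and *Tcf7* cluster. *Egr2*, a zinc finger factor of the EGR family, had 16.7 and 23.2 CPM in TAM/Mono against 4.01 and 5.25 CPM in T cells. In NK cells of the library labelled WT it had 17.9 CPM, but 9 of its 20 UMIs there were in 1 cell, and without that cell it had 9.90 CPM.

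Most chaperone genes were more even. *Hspa8* differed by a ratio of 1.29 between its highest class and its lowest under the WT label and 1.43 under the KO label, both times from DC to NK cells. *Hsp90ab1*, the constitutive cytosolic Hsp90, was highest in T cells (1676 and 1306 CPM), as were *Hspe1* (576.4 and 523.9 CPM) and *Hspd1* (244.1 and 160.2 CPM), which encode the mitochondrial Hsp10 and Hsp60. All 3 were highest in the cycling T cell cluster among T cell clusters. *Hspa1a*, *Hspa1b* and *Hspb1* were uneven, whereas the stress-inducible *Hsp90aa1* differed by a ratio of 1.68 and 1.80 between classes. *Hspa1a*, one of the stress-inducible Hsp70 genes, had 407.1 and 485.6 CPM in TAM/Mono against 57.3 CPM in NK cells under the WT label and 48.7 CPM in T cells under the KO label. *Hspa1b*, the other inducible Hsp70 gene, had 41.2 and 44.2 CPM in TAM/Mono against 7.64 and 6.45 CPM in T cells. *Hspb1* had 38.0 and 28.5 CPM in TAM/Mono against 1.79 and 0.825 CPM in NK cells.

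Inside the classes the arms differed by cluster. The early response arm was highest in the monocyte cluster with *Chil3* and *Ace* (cluster 5, 7842 and 8482 CPM) and in the *Inhba* and *Thbs1* cluster (cluster 3, 6626 and 7539 CPM). It was lowest in cycling T cells (cluster 6, 2334 and 2233 CPM), and low too in the TAM/Mono cluster with *C1qa* and *Gas6* (cluster 10, 2704 and 2716 CPM). *Fos* alone had 1274 and 1593 CPM in cluster 5 and 36.9 and 49.9 CPM in cluster 2, the *Cxcr6*, *Prf1* and *Lag3* T cells. Cluster 3 led for *Atf3*, *Ier3* and *Klf6* in both libraries, and cluster 5 led for *Fos*, *Dusp1* and *Nr4a1*.

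**Figure D2:**
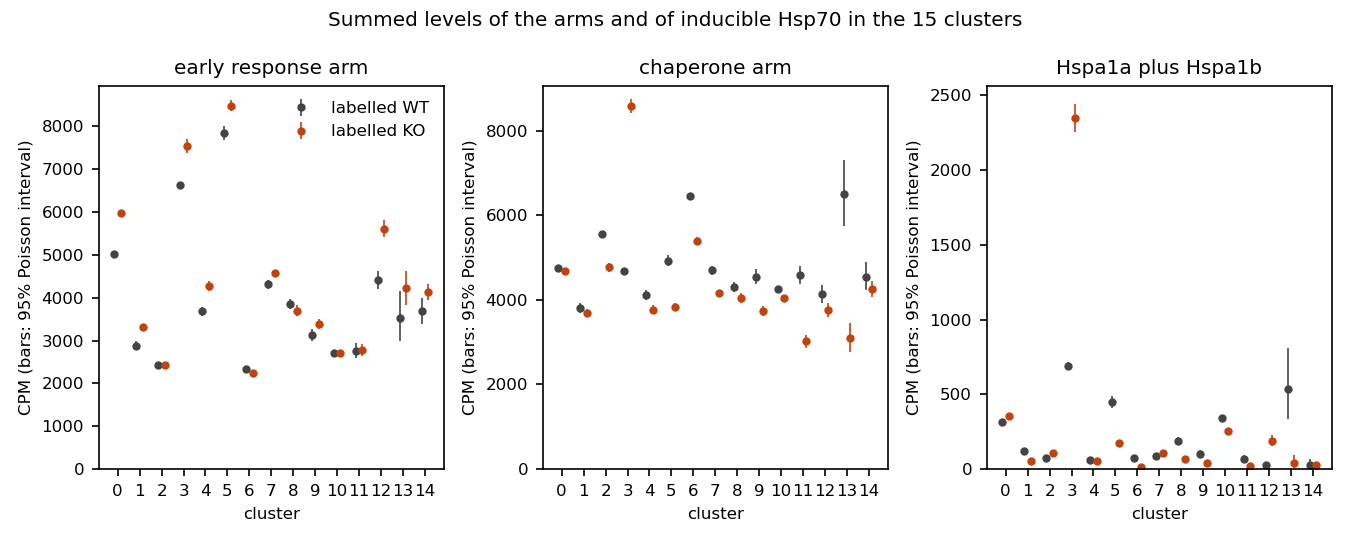
Summed CPM of the early response arm, the chaperone arm and the *Hspa1a* and *Hspa1b* pair in the 15 clusters, as points with 95% Poisson intervals, grey for the library labelled WT and orange for the library labelled KO. The early response arm has its top at cluster 5 in both libraries, and cluster 3 of the library labelled KO stands over all others in the chaperone arm (8580 CPM) and in the pair (2347 CPM).

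Between the libraries, the 2 arms differed in opposite directions in T cells, NK cells and DC as counted. In T cells and in NK cells an arm came near 0 under another way of processing. Log2 ratios here are of the library labelled KO over the library labelled WT, with 0.5 UMIs added. The early response arm had a log2 ratio of 0.16 (0.14 to 0.19) in T cells, 0.22 (0.16 to 0.28) in NK cells, 0.13 (0.11 to 0.15) in TAM/Mono and 0.12 (0.08 to 0.15) in DC. The chaperone arm had -0.35 (-0.37 to -0.33) in T cells, -0.12 (-0.18 to -0.06) in NK cells, 0.05 (0.03 to 0.07) in TAM/Mono and -0.15 (-0.19 to -0.11) in DC. These arm values are modest, and the T cell value of the early response arm was 0.017 when both libraries were given the same mix of T cell clusters. Over the 15 clusters that arm was higher under the KO label in 12 (9 intervals above 0) and lower in 3 (1 interval below 0). The chaperone value in NK cells was -0.0064 in cells thinned to one depth. In T cells it was -0.21 at the same mix, and in TAM/Mono, where it was 0.05, it was -0.0093 after centring on the median of all genes.

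Gene by gene, the early response list leaned up, while *Jund* and *Dusp5* had log2 ratios below 0 in all 4 larger classes. For *Dusp5* the interval held 0 in T cells (-0.05, -0.21 to 0.10) and NK cells (-0.22, -0.61 to 0.17). Its T cell value was 0.11 at the same cluster mix. The median log2 ratio of the early response list over members with at least 100 UMIs was 0.39 in T cells (23 members), 0.45 in NK cells (15), 0.26 in TAM/Mono (23) and 0.19 in DC (23), beside -0.069, 0.0039, 0.060 and -0.076 over all genes with at least 100 UMIs. The interval was above 0 for 13 of 23 members in T cells, 9 of 15 in NK cells, 16 of 23 in TAM/Mono and 12 of 23 in DC. Over all genes with at least 100 UMIs, the interval was above 0 for 14.5%, 10.3%, 22.8% and 9.03% in these classes. It was below 0 for 4, 1, 7 and 4 early response members, against 28.0%, 10.9%, 15.3% and 18.3% of all genes. For the chaperones, the medians were -0.36 (11 members), -0.085 (8), 0.10 (11) and -0.17 (8). Their intervals were below 0 for 8 of 11 members in T cells, 3 of 8 in NK cells, 1 of 11 in TAM/Mono and 5 of 8 in DC. They were above 0 for 0, 0, 4 and 1 members in the same order, both to be read against the same shares of all genes. An interval narrows as UMIs rise, and members were not matched to genes with as many UMIs. The contrast with these shares can thus reflect UMI number in part, for both arms.

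The clusters made up different shares of T cells and of TAM/Mono in the libraries, and several of these values changed when both were given one mix of clusters. The early response median was then 0.17 in T cells and 0.35 in TAM/Mono, and the chaperone median -0.26 and 0.28. In T cells, *Fos* went from 1.10 to 0.55, *Junb* from 0.89 to 0.51, *Btg2* from 0.95 to 0.52 *Zfp36* from 0.61 to 0.17, *Ppp1r15a* from 0.67 to 0.27 and *Jun* from 0.39 to -0.04, while *Jund* was -1.51. In TAM/Mono, *Atf3* went from 0.26 to 0.62 and *Nr4a1* from 0.95 to 0.53, and *Klf6* and *Ier3* changed sign. The TAM/Mono chaperones moved too, *Hspa1a* from 0.25 to 0.84, *Hspa1b* from 0.10 to 0.68, *Hsph1* from 0.12 to 0.61 and *Hspb1* from -0.41 to 0.60. The values below are as counted unless a same-mix value is named.

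Few members passed 2-fold, a log2 ratio of 1. In T cells, 2 of 34 members with at least 100 UMIs were higher by that much under the KO label (*Fos* and *Fosb*, against 1.05% of all genes with as many UMIs) and 1 was lower (*Jund*, against 1.74% of all genes). Of 23 members in NK cells, 0 were higher (against 0.511% of all genes) and *Jund* was lower (against 1.22%). TAM/Mono had *Egr1* higher (against 0.672%) and *Jund* lower (against 1.68%) of 34, and DC had the same 2 genes, *Egr1* higher (against 0.404%) and *Jund* lower (against 1.69%), of 31. In pDC, 0 of 13 members were higher (against 0.677%), and *Jund* and *Hsp90aa1* were lower (against 1.1%). Each count is 1 or 2 genes, so nothing is read from them about an arm, but the same gene, *Jund*, was lower in all 5 classes.

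**Figure D3:**
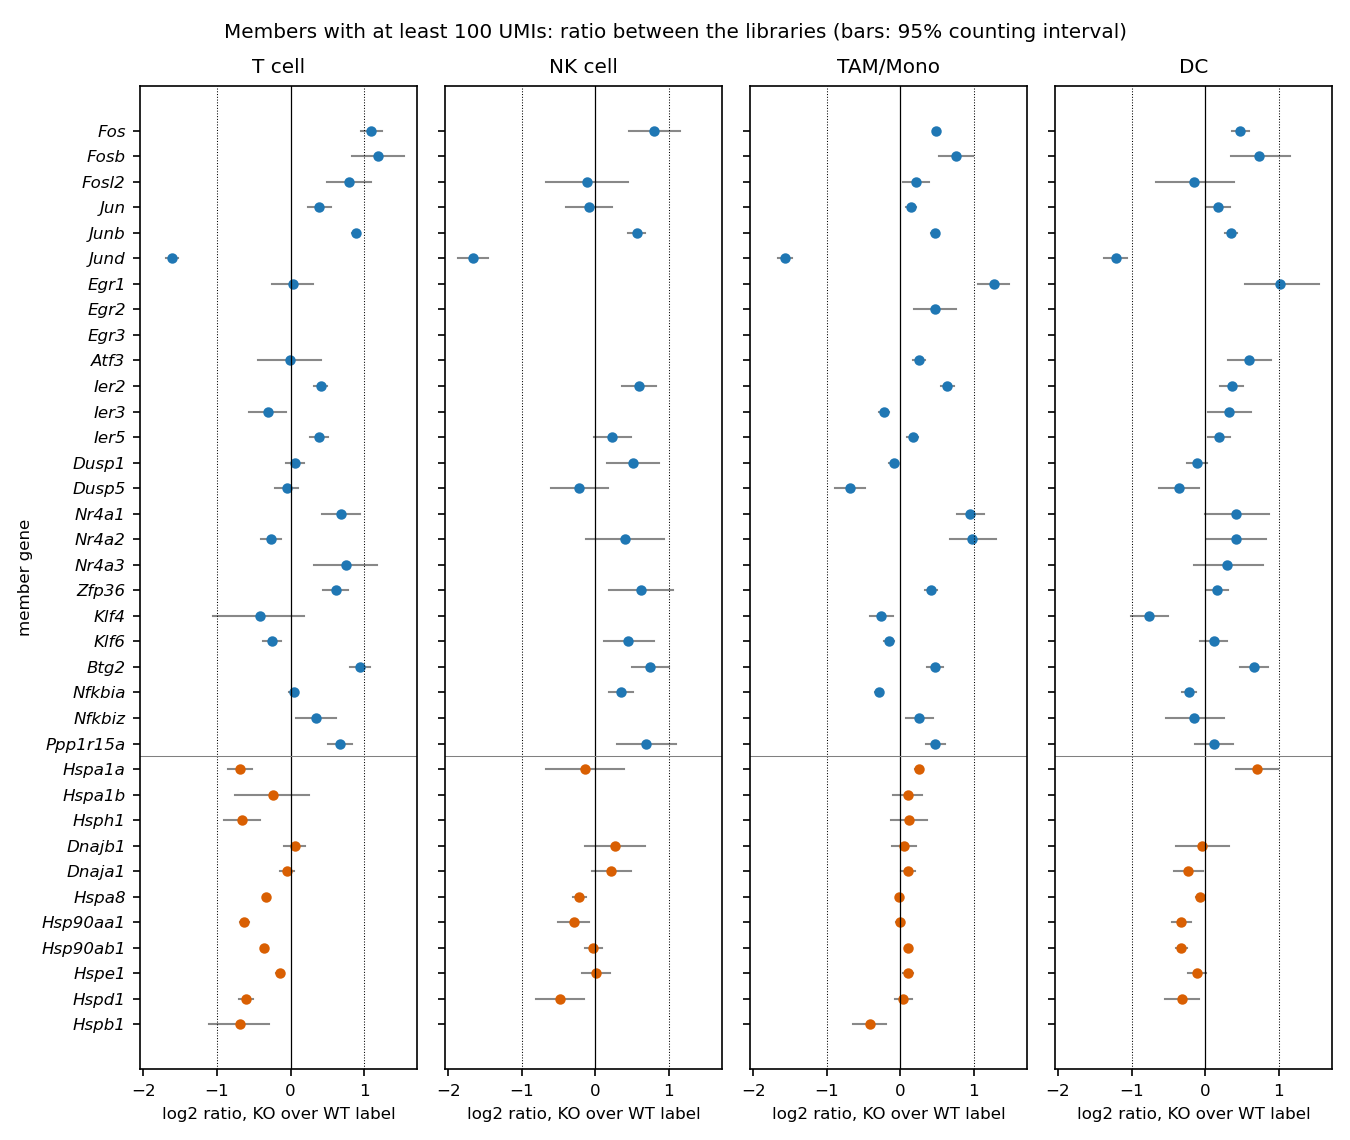
Log2 ratio of the library labelled KO over the library labelled WT for each member with at least 100 UMIs, in 4 panels for T cells, NK cells, TAM/Mono and DC, with 95% counting intervals. *Jund* lies between -1.66 and -1.22 in all panels, far to the left of every other early response gene.

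*Jund*, the JUN protein gene least dependent on stimulation, had 588.1 CPM in T cells, 698.3 in NK cells, 327.9 in TAM/Mono, 333.0 in DC and 428.4 in pDC of the library labelled WT. Under the KO label it had 193.0, 220.2, 110.8, 143.4 and 138.7 CPM. The lowest class under the WT label was thus above the highest class under the KO label. The log2 ratios were -1.61 (-1.69 to -1.53) in T cells, -1.66 (-1.87 to -1.46) in NK cells, -1.56 (-1.67 to -1.47) in TAM/Mono and -1.22 (-1.37 to -1.06) in DC. Counted from the lowest ratio it was number 40 of 8545 genes in T cells, 10 of 2545 in NK cells, 45 of 8334 in TAM/Mono and 61 of 5451 in DC.

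Each of the 15 clusters had *Jund* lower under the KO label, with log2 ratios from -1.66 to -0.93 and all 15 intervals below 0. The difference was also one of how many cells held a UMI. At matched depth, 77.3% and 42.5% of T cells held one, 80.2% and 52.5% of NK cells, 74.0% and 38.4% of TAM/Mono, and 84.4% and 60.4% of DC. Before thinning the T cell shares were 92.7% and 59.0%. Over 9 other ways of processing, the log2 ratio stayed between -1.62 and -1.51 in T cells, -1.67 and -1.52 in NK cells, -1.70 and -1.52 in TAM/Mono, and -1.24 and -1.14 in DC.

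*Junb* and *Fos* went the opposite way. *Junb*, an early JUN protein gene of T cells and macrophages, had 494.7 and 914.2 CPM in T cells, 900.6 and 1328 in NK cells, 705.8 and 974.9 in TAM/Mono, 738.8 and 944.1 in DC, and 237.1 and 463.7 in pDC. Its log2 ratios were 0.89 (0.84 to 0.93), 0.56 (0.45 to 0.68), 0.47 (0.42 to 0.51) and 0.35 (0.27 to 0.44) in the 4 larger classes. The T cell value was above those of the single T cell clusters, which lay from 0.26 to 0.63, and was 0.51 at the same mix. Every class and each of the 15 clusters had more *Junb* under the KO label, with 14 intervals above 0. Under the WT label *Jund* exceeded *Junb* in 2 of the 5 T cell clusters (2 and 6), and under the KO label *Junb* exceeded *Jund* in all 5.

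*Fos* had log2 ratios of 1.10 (0.95 to 1.24) in T cells, 0.80 (0.46 to 1.15) in NK cells, 0.49 (0.44 to 0.54) in TAM/Mono and 0.48 (0.37 to 0.59) in DC, and was higher under the KO label in 15 of 15 clusters (12 intervals above 0). The T cell value ranged from 0.55, at the same cluster mix, to 1.18 over the other ways of processing and was past 1 in 5 of 9. No single T cell cluster was past 1, with values from 0.36 to 0.69. At matched depth 17.5% and 30.8% of T cells held a *Fos* UMI, and in NK cells 29.7% and 29.4% did. The log2 ratio in NK cells was 0.35 in the same thinned cells, the lowest of the 9 other ways of processing. *Fosb* was lower in level, with 8.92 and 20.3 CPM in T cells (1.18, 0.84 to 1.54, but 0.61 in cells thinned to one depth) and 22.9 and 38.8 CPM in TAM/Mono (0.76, 0.53 to 0.99). *Jun* differed less, with log2 ratios of 0.39 (0.23 to 0.55) in T cells, -0.04 at the same mix, -0.09 (-0.40 to 0.23) in NK cells, 0.15 in TAM/Mono and 0.18 in DC.

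**Figure D4:**
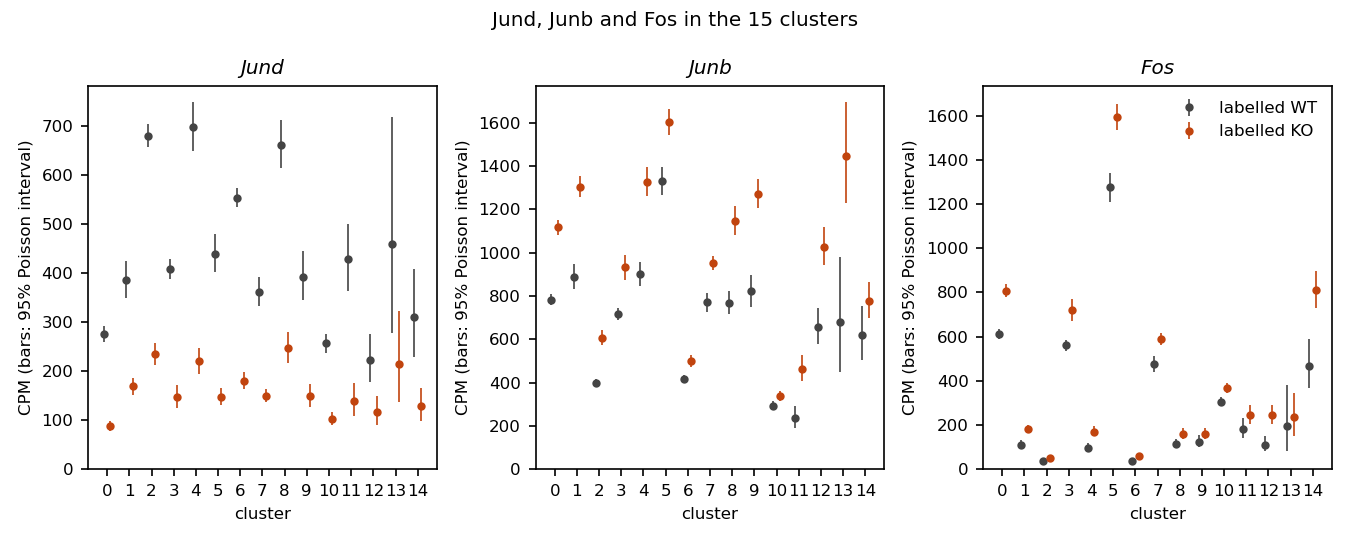
CPM of *Jund*, *Junb* and *Fos* in the 15 clusters with 95% Poisson intervals, grey for the library labelled WT and orange for the library labelled KO. The orange point lies below the grey one in every cluster for *Jund* and above it in every cluster for *Junb* and *Fos*.

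Among the other transcription factors, *Egr1*, a zinc finger factor induced through serum response factor, had 23.8 and 57.3 CPM in TAM/Mono and 19.6 and 40.1 CPM in DC. The log2 ratios were 1.27 (1.06 to 1.49) and 1.02 (0.54 to 1.55). T cells were level at 21.6 and 22.0 CPM (0.03, -0.25 to 0.30), and NK cells had 34.0 and 25.6 CPM. The TAM/Mono value was past 1 in 8 of 9 other ways of processing (0.96 at the same mix), the DC value in 6 of 9. Under the KO label *Egr1* was highest in cluster 5, with 126.3 CPM against 67.8 CPM in the library labelled WT.

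*Nr4a1*, which follows antigen receptor and inflammatory signals, had log2 ratios of 0.69 (0.43 to 0.94) in T cells and 0.95 (0.78 to 1.13) in TAM/Mono, from 36.7 to 71.1 CPM in the latter, where the same-mix value was 0.53. *Nr4a2* had 0.98 (0.67 to 1.30) in TAM/Mono, from 12.2 to 24.1 CPM, but -0.27 (-0.40 to -0.13) in T cells. With the T cell clusters at the same mix in both libraries, that value was 0.28. *Atf3* was level in T cells (-0.01, -0.44 to 0.41) and higher in TAM/Mono (0.26, 0.18 to 0.34) and DC (0.60, 0.31 to 0.89). The TAM/Mono value was below those of the 4 single clusters (0.28 to 0.93) and was 0.62 at the same mix. *Klf4* was lower under the KO label in DC (-0.76, -1.01 to -0.50) and in 14 of 15 clusters, but in 3 of these alone did the interval lie below 0.

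The feedback genes split. *Btg2*, an antiproliferative gene that recruits deadenylases, was higher under the KO label in 15 of 15 clusters (10 intervals above 0), with log2 ratios of 0.95 in T cells (0.52 at the same mix), 0.75 in NK cells, 0.48 in TAM/Mono and 0.66 in DC. *Zfp36* was higher in 14 clusters, and *Ppp1r15a*, the phosphatase subunit that restarts translation after stress, in 12. *Ier2*, a short-lived nuclear early protein, was higher in 15 (11 intervals above 0), from 168.9 to 263.5 CPM in TAM/Mono. *Dusp1* was higher under the KO label in NK cells (0.51, 0.16 to 0.86) and differed less in T cells (0.06, -0.06 to 0.18) and TAM/Mono (-0.09, -0.15 to -0.04), where clusters 5 and 10 had -0.27 and -0.41. *Dusp5*, a nuclear ERK phosphatase, was lower in TAM/Mono (53.2 and 33.3 CPM, -0.68, -0.88 to -0.48), with -0.41 at the same mix. The inhibitor of NF-kappaB, *Nfkbia*, was 0.04 in T cells (-0.01 to 0.10) and -0.29 (-0.34 to -0.24) in TAM/Mono. The latter was -0.09 at the same mix, with clusters 3 and 10 below 0 (-0.35 and -0.30), cluster 5 above it (0.35) and cluster 0 at 0.03.

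The members not yet given were of middle or low level. *Fosl2*, a FOS family partner of JUN proteins, had 13.8 and 24.0 CPM in T cells (0.79, 0.50 to 1.09, and 0.52 at the same mix), while in DC its interval held 0 (-0.15, -0.66 to 0.39). *Ier5*, an early gene that acts on HSF1, had 503.9 and 428.0 CPM in pDC, above the 4 larger classes, 557.1 and 289.7 CPM in the few B cells (23 and 31 UMIs), and 92.4 and 121.2 CPM in T cells (0.39, 0.27 to 0.51, and 0.17 at the same mix). *Klf6*, a zinc finger factor of activated macrophages, was lower under the KO label in T cells (-0.25, -0.37 to -0.13) and higher in NK cells (0.45, 0.11 to 0.79). In TAM/Mono it was -0.15 (-0.22 to -0.08) over the class but above 0 in all 4 clusters (0.01 to 0.29), and 0.14 at the same mix, so no direction is read there. *Ier3* was lower in T cells (-0.31, -0.56 to -0.06, and -0.12 at the same mix) and higher in DC (0.32, 0.04 to 0.62). Its TAM/Mono value was -0.22 (-0.28 to -0.15) over the class and 0.09 at the same mix, with 3 of the 4 clusters above 0, so no direction is read there either. *Nfkbiz*, a nuclear NF-kappaB cofactor, had 19.5 and 24.8 CPM in T cells (0.35, 0.08 to 0.62). That value was 0.07 at the same mix, with T cell clusters 1 and 8 below 0 (-0.72 and -0.14). *Egr3* was too rare for a ratio.

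Of 48 other early response genes in the table, 0 were higher by 2-fold under the KO label in any of the 5 classes, and the lower ones were 1 of 46 in T cells (*Dusp2*), 1 of 21 in NK cells (*Dusp2*), 3 of 46 in TAM/Mono (*Fosl1*, *Dusp2* and *Plk3*), 1 of 36 in DC (*Dusp2*) and 2 of 8 in pDC (*Klf2* and *Zfp36l2*). *Dusp2*, an inducible nuclear MAP kinase phosphatase of leukocytes, had log2 ratios of -1.80, -2.16, -1.42 and -2.27 in the 4 larger classes. It and *Jund* were thus the 2 early response genes below 2-fold in all 4. These counts stand against 0.404% to 1.05% of all genes higher and 1.1% to 1.74% lower, so nothing is read from them about the list. Its median was 0.049 in T cells, 0.23 in NK cells, -0.055 in TAM/Mono and -0.013 in DC.

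Of 33 other heat shock and folding genes, 0 passed 2-fold in T cells, NK cells or DC, and 1 of 30, *Fkbp5*, was lower in TAM/Mono, against the same shares of all genes. Their medians were -0.22 in T cells, 0.010 in NK cells, 0.062 in TAM/Mono and -0.17 in DC. A list of 17 endoplasmic reticulum stress genes had medians of -0.38 in T cells, -0.45 in NK cells, -0.38 in TAM/Mono and -0.14 in DC, with 1 gene, *Pdia6*, past 2-fold in T cells. That list was below the all-gene median in TAM/Mono too, where the cytosolic chaperones were not.

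Within the chaperone arm, *Hsp90aa1*, the stress-inducible cytosolic Hsp90, had 601.0 and 389.4 CPM in T cells (-0.63, -0.69 to -0.57) and 518.2 and 515.4 CPM in TAM/Mono (-0.01, -0.06 to 0.05). *Hspa8* had 2155 and 1704 CPM in T cells (-0.34, -0.37 to -0.31) against 2014 and 1992 CPM in TAM/Mono (-0.02, -0.04 to 0.01). *Hsp90ab1* had a log2 ratio of -0.36 in T cells, -0.03 in NK cells, 0.11 in TAM/Mono and -0.32 in DC. The Hsp40 genes, whose J-proteins hand clients to Hsp70, were level in T cells, with 74.7 and 77.6 CPM for *Dnajb1* and 192.1 and 185.8 CPM for *Dnaja1*. *Hsph1*, which encodes the Hsp110 exchange factor, had a log2 ratio of -0.66 in T cells, *Hspd1* -0.61 and *Hspe1* -0.14. At the same cluster mix, the T cell values were -0.59 for *Hsph1*, -0.42 for *Hsp90aa1*, -0.27 for *Hspd1*, -0.26 for *Hspa8* and -0.12 for *Hsp90ab1*. The clusters differed, with *Hsp90aa1* at -0.60 and -0.48 in clusters 2 and 6 and between -0.06 and -0.01 in clusters 1, 8 and 9, and *Hsp90ab1* above 0 in clusters 1 (0.21) and 8 (0.11).

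The RNA of the inducible genes was held by few cells. *Hspa1a* had 11439 UMIs in 19.0% of cells, and the 10% of cells with the most held 96.1% of them. A single TAM/Mono cell of the library labelled WT held 322 *Hspa1a* UMIs among its 5068 UMIs. *Hspb1*, the small heat shock protein gene Hsp27, had 1047 UMIs in 145 cells (2.89%), and 10 cells held 58.7% of them. For comparison, the top 10% of cells held 34.8% of *Hspa8*, 27.5% of *Junb* and 48.0% of *Fos*. Poisson intervals for *Hspa1a*, *Hspa1b* and *Hspb1* therefore understate the spread.

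**Figure D5:**
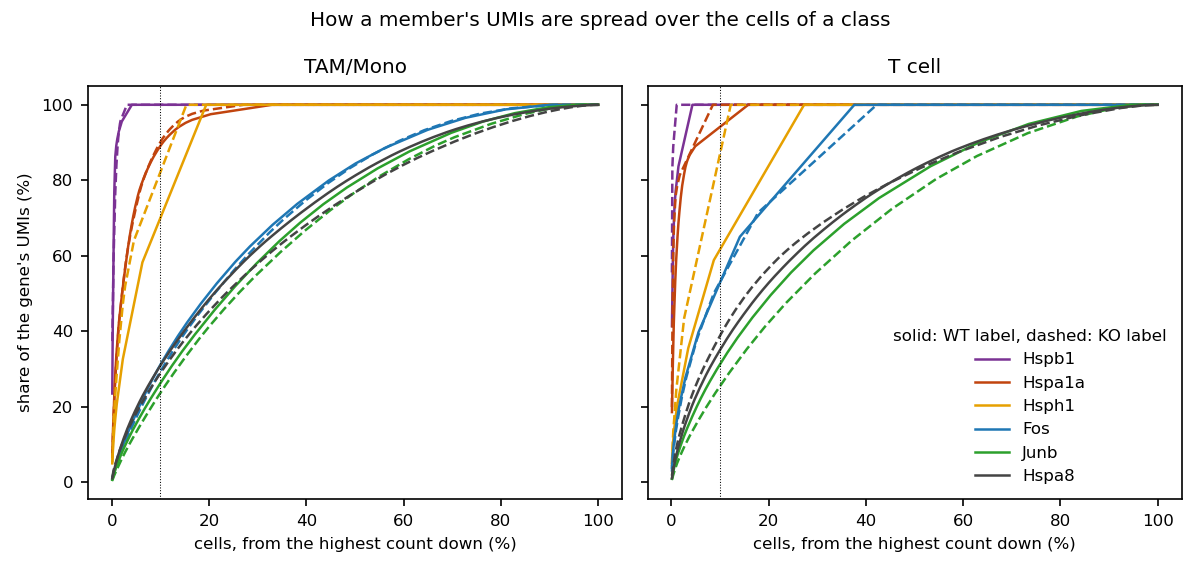
Cumulative share of a gene's UMIs (vertical axis, percent) against cells ordered from the highest count down (horizontal axis, percent of the class), solid for the library labelled WT and dashed for the library labelled KO. *Hspa1a* nears its full height within the first 10% of cells, marked by the dotted line, while genes such as *Hspa8* and *Junb* climb gradually.

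*Hspa1a* and *Hspa1b* encode proteins that are nearly the same, and reads could be split between them, so single values of either are uncertain. *Hspa1a* took 90.8% (90.1 to 91.5) of the pair's UMIs under the WT label and 91.5% (90.7 to 92.2) under the KO label. Across TAM/Mono cells thinned to one depth, the correlation of the pair was r = 0.694 (890 cells) and 0.782 (732 cells). That of *Hspa1a* with *Hsp90aa1* was 0.383 and 0.559. Between the arms, r was 0.17 and 0.052 in TAM/Mono, -0.052 and -0.056 in T cells, and 0.204 and -0.027 in DC. Inside the early response arm, r of *Fos* in TAM/Mono was 0.347 and 0.425 with *Dusp1* and 0.323 and 0.399 with *Junb*, but 0.081 and 0.067 with *Jun* and 0.075 and 0.091 with *Jund*. Cells of one library share depth and handling, and no significance is attached to these values.

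The genes outside the set that ran closest to each arm across cells were ranked by the lower of the values in the libraries. With the early response arm they were *Btg1* (0.452 and 0.474), *Pim1* (0.431 and 0.437), *Plac8*, *Srgn* and *Sat1* in TAM/Mono, of 6192 genes. In T cells, *Malat1* (0.375 and 0.402), *Btg1*, *Rps27*, *Pim1* and *Fau* came first of 5944. The chaperone arm in T cells ran with *Ran* (0.337 and 0.328), *Ppia*, *Ptma*, *Eif5a* and *Rps2*, and in TAM/Mono with ribosomal protein genes at 0.19 to 0.197 in the library labelled KO.

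To describe cells rich in inducible Hsp70, a line was drawn at 10 UMIs of the pair per 10000, after the values had been seen, so they are a range and not a type. Under the WT label 94 of 968 TAM/Mono cells (9.71%, 7.92 to 11.8) were at or over it, and under the KO label 98 of 834 (11.8%, 9.64 to 14.1). They held 86.4% and 90.6% of the pair's UMIs in the class. Just under the line, at 5 to 10 per 10000, were 38 and 23 cells, and just over it, at 10 to 20, were 30 and 26. In T cells, 25 of 1045 (2.39%, 1.55 to 3.51) and 6 of 1116 (0.538%, 0.198 to 1.17) were at or over the line.

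These cells carried more of the other chaperones too, in both libraries. Against the remaining TAM/Mono cells, the log2 ratio was 4.38 and 5.74 for *Hspb1*, 2.31 and 3.51 for *Hsph1*, 2.28 and 2.68 for *Hsp90aa1*, 1.60 and 2.40 for *Dnaja1*, 1.52 and 1.54 for *Dnajb1*, 0.91 and 1.15 for *Hspe1*, 0.85 and 0.99 for *Hspa8*, 0.57 and 0.99 for *Hsp90ab1*, and 0.41 and 0.94 for *Hspd1*. As a sum, early response genes were higher in them as well (0.56 and 0.41), though not for each gene. *Jun* (1.66 and 1.71), *Atf3* (1.55 and 1.76) and *Ppp1r15a* (1.36 and 1.28) were higher, whereas *Fos* (-0.34 and -0.32) and *Ier2* (-0.43 and -0.57) were lower. Within cluster 3 the ratios were smaller for *Jun* (1.16 and 1.04) and *Atf3* (0.73 and 0.73). They were larger for others, such as *Dnaja1* (2.27 and 2.84), *Hspd1* (1.03 and 1.15) and *Hspa8* (1.23 and 1.26). The ratio of *Dnajb1* was smaller in both libraries (1.405 and 0.96). Those of *Hspb1* (4.66 and 3.78), *Hsph1* (2.715 and 2.85) and *Hsp90aa1* (2.32 and 1.83) were larger under the WT label and smaller under the KO label. *Fos* had -0.33 and 0.00093 there and *Ier2* -0.26 and 0.02, so the lower level was not seen there under the KO label. Their depth was lower (medians of 8028 and 6888 UMIs against 10580.5 and 9039), and their mitochondrial share was 1.29% and 1.37% against 1.31% and 1.45%.

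Cluster 3, the *Inhba* and *Thbs1* cells, held 2516 of the pair's 5339 TAM/Mono UMIs under the WT label and 2543 of 4778 under the KO label. The pair had 690.4 CPM there (365 cells) in the library labelled WT and 2347 CPM (132 cells) under the KO label, which is a log2 ratio of 1.76. In it 54 of 365 cells (14.8%, 11.3 to 18.9) and 43 of 132 (32.6%, 24.7 to 41.3) were at or over the line. The chaperone arm there had 4680 and 8580 CPM (0.87), with *Hsph1* at 29.9 and 113.5 CPM, *Hsp90aa1* at 701.6 and 1180 CPM and *Dnaja1* at 196.5 and 382.1 CPM. In the other 14 clusters the chaperone arm had a log2 ratio below 0, with 11 intervals below 0. Without the 5 cells of each library with the most of the pair the values were 1.66 for the pair and 0.77 for the arm, and without 10 they were 1.39 and 0.67.

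The other TAM/Mono clusters rested more on single cells. Cluster 0 had 314.3 and 353.4 CPM of the pair (0.17), with 21 of 340 cells (6.18%) and 40 of 344 cells (11.6%) at or over the line. There 1 cell of each library held 340 of 1389 and 106 of 1274 UMIs. The value was 0.57 without the WT cell, 0.047 without the KO cell and 0.45 without both. The monocyte cluster 5 had 448.0 and 174.2 CPM (-1.36), with 272 of 522 and 91 of 316 UMIs in 1 cell of each library. Its value was -0.31 without the WT cell, -1.845 without the KO cell and -0.79 without both. Cluster 10 had 340.3 and 256.4 CPM (-0.41), with 229 of 912 and 318 of 645 UMIs in 1 cell of each library. Its value was 0.0059 without the WT cell, -1.37 without the KO cell and -0.96 without both, so no direction is read there. In cluster 3 the same 3 settings gave 1.63 to 1.88.

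Over the whole of TAM/Mono, the pair's log2 ratio was 0.24 as counted, 0.83 at the same cluster mix and -0.26 without the cells at or over the line. In T cells it was -0.64 as counted, -0.72 at the same mix and 0.11 without those cells. The line was drawn on the pair itself, so the values without those cells depend on the cut and no direction is read from them. In T cells 1 cell of the library labelled WT held 205 of the pair's 1137 UMIs, and without that cell alone the value was -0.36. No cell of the library labelled KO was left out there, so that value is one-sided. Without the cells at or over the line, the chaperone arm in T cells went from -0.35 to -0.33, and most of that arm was *Hspa8* and *Hsp90ab1*.

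Single cells also set some of the values of *Hspb1*. In cluster 9, the *Klra7* and *Cd160* T cells, 76 of its 77 UMIs in the library labelled WT were in 1 cell, and in DC under the KO label 27 of 35 UMIs were. In pDC there were 35 *Hspb1* UMIs under the WT label, 19 of them in 1 cell, and 0 under the KO label, where a count of 0 allows up to 5.94 CPM. In TAM/Mono, with 38.0 and 28.5 CPM, 106 of 452 and 96 of 257 UMIs were in 1 cell each. No direction between the libraries is read from *Hspb1*.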

How the data were processed

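The authors sequenced Chromium Single Cell 3′ V2 libraries, processed them with Cell Ranger against mm10 (per the submitters' processing notes, versions not given) and aggregated both libraries. Although named raw counts, the table deposited by the authors was found to be on a natural log scale, ln(1 + UMIs scaled to 10000 per cell). The exponential minus 1 summed to 10000 in each cell, and division by the cell's smallest nonzero value gave whole UMIs (tolerance 0.01) for 100% of nonzero values in all 5022 cells. All sums use these UMIs. The study's filter (300 UMIs, 100 genes, 5% mitochondrial UMIs) removed 0 cells.

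Cells were clustered with Seurat 5.3.0 (R 4.3.3) on 582 variable genes without the members, with 13 PCs, resolution 0.8 and seed 1. Classes were named by marker genes (detected in at least 10% of cells, at least 3 detected). The authors state no doublet removal, and cells with at least 3 UMIs of 3 Cd3 genes and at least 5 of 8 myeloid genes (486 and 282 cells) were left out as an alternative. Sums are CPM with exact Poisson intervals, shares have Clopper-Pearson intervals, and log2 ratios have conditional exact binomial intervals. Values come from Python 3.11.15 (scipy 1.17.1, pandas 2.3.3, numpy 2.4.6, matplotlib 3.10.9). A count of 0 was given the limit of 3 counts. Cells were thinned to 3500 UMIs (T), 3200 (NK), 5800 (TAM/Mono), 8400 (DC) or 5600 (pDC), the 10th percentile of the class, and shallower cells were left out, 180 of the KO label and 0 of the WT label in T cells, 43 and 0 in NK cells, 102 and 78 in TAM/Mono, and 37 and 6 in DC. The interval code was checked on simulated data.

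All members are accounted for. Those given with full values passed 2-fold in the same direction in 2 of the 4 larger classes or differed at least 4-fold between classes in both libraries, and others were named after their values were seen. The members and lists were chosen with earlier results of these data known. Alternatives covered the clustering, cells with markers of both T and myeloid cells, the mix of clusters, the scaling, the weighting of cells, the cells highest in an arm, thinning and the minimum of UMIs. Leaving out cells high in Hsp70, or the 1 cell with the most UMIs in a library, was added after the data were seen. Gene positions are from GENCODE, matched by symbol, and promoter windows from RefSeq.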

Additional observations from a re-analysis of the deposited data

Results flagged for a closer look

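The direction of the difference between the libraries changed with the class or cluster for a few members, and that change was not tested, since each genotype is 1 library. The log2 ratio of *Hspa1a*, KO label over WT label, was 0.701 in DC and -0.684 in T cells, and for *Hspa1a* and *Hspa1b* together it was 0.63 in DC and -0.639 in T cells. Single cells of the library labelled WT held much of the pair. In T cells 1 cell held 205 of 1137 UMIs, and without it the value was -0.36. In DC 1 cell held 68 of 153 UMIs, and without it the value was 1.47. No cell of the library labelled KO was left out in T cells or DC, so these values are one-sided. *Nr4a2* had 0.981 in TAM/Mono and -0.267 in T cells, and the T cell value was 0.28 with the clusters at the same mix. Among TAM/Mono clusters, the chaperone arm had 0.874 in cluster 3 and -0.362 in cluster 5, and the *Hspa1a* and *Hspa1b* pair had 1.76 in cluster 3 and -1.36 in cluster 5. In cluster 5, 1 cell of each library held 272 of 522 and 91 of 316 UMIs of the pair. The value was -0.31 without the WT cell, -1.845 without the KO cell and -0.79 without both. These leave-outs were chosen after the data were seen.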

How the results depend on the processing

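Arm values are log2 ratios, KO label over WT label. Under the alternatives, 43 of these values moved within the counting interval of the reported value and 29 moved beyond it, and the cause was not tested. With cells holding both T cell and myeloid UMIs left out, the chaperone arm had -0.33 in T cells, 0.073 in TAM/Mono and -0.11 in DC, and the early response arm 0.093 in TAM/Mono and 0.17 in DC. With one mix of clusters, the early response arm had 0.017 in T cells and 0.17 in TAM/Mono, and the chaperone arm -0.21 and 0.19. Without mitochondrial and ribosomal protein genes, the early response arm had 0.25 in T cells, 0.18 in TAM/Mono and 0.18 in DC, and the chaperone arm -0.26, 0.10 and -0.088. Centred on the median of all genes, these were 0.23, 0.069 and 0.19 for the early response arm and -0.28, -0.0093 and -0.074 for the chaperone arm. As a mean over cells, T cells had 0.20 (early response) and -0.37 (chaperone), and the early response arm in TAM/Mono 0.16. Without the top 1% of cells, the chaperone arm in T cells had -0.39. Thinned to one depth, the early response arm had 0.098 in T cells and the chaperone arm -0.0064 in NK cells, 0.14 in TAM/Mono and -0.19 in DC. The members past 2-fold were 5 in T cells as a mean over cells (1 higher, 4 lower) and without the top 1% of cells (2 higher, 3 lower). They were 4 in TAM/Mono without mitochondrial and ribosomal protein genes (3 higher, 1 lower), and 1 in DC (lower) at 500 UMIs, a resolution of 0.4, one mix of clusters or one depth. The share of all genes past 2-fold was not counted under these alternatives, so nothing is read from these counts about an arm. Of the values for single members, 945 moved within their interval, 140 beyond it, and 0 that were past 2-fold changed sign. The early response order of classes was TAM/Mono, DC, NK cells and T cells with those cells left out and with the members kept in the clustering. With cells holding both markers left out, DC came before T cells in the chaperone order under the KO label. No paired analysis was possible because each genotype is 1 library.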
